A study of Mus musculus with 16 samples.

Results

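The 45 genes described here carry out mitosis or the spindle checkpoint: the checkpoint itself, the mitotic kinases and their activators, chromatid separation and mitotic exit, kinesins and other spindle proteins, centromere proteins, chromosome condensation, and cytokinesis. They were chosen by name, and a probe set (a group of short array probes for 1 transcript) was taken for each from the array annotation. 43 of the 45 had a probe set. Ccnb1, which encodes the main mitotic cyclin, and Hmmr, which encodes a spindle protein, had none annotated. Of 13674 genes with a probe set in the series, 9224 passed a filter on low signal with at least 1 of their probe sets. By the representative probe set alone, 42 of the 43 genes did. The exception was Cenpe, a kinetochore kinesin, whose representative gave signals between 3.6 and 34.7, while another of its probe sets, 112018_at, passed. Where a gene had several probe sets, the representative was taken from the first chip type before the second, and then by the highest mean signal. The mean signal of the 42 representatives ran from 164 for Ube2c to 4823 for Stmn1, with a median of 1481.

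The RNA came from cultured mouse endothelial cells, in VEC-positive and VEC-null forms, where VEC is VE-cadherin, the adhesion protein of endothelial junctions that Cdh5 encodes. The 4 conditions were VEC-positive confluent, VEC-positive sparse, VEC-null confluent and VEC-null sparse. The labels give 1 origin for all of them, embryonic stem cells homozygous for a null mutation of the VE-cadherin gene, and no source used here says how the VEC-positive cells regained the protein. All cultures had been starved for 36 h in medium with bovine serum albumin before RNA was taken. Each condition gave 1 labelled cRNA sample, which was hybridised to 2 copies of each of 2 chip types, 16 arrays in all. The copies are therefore repeat hybridisations of 1 sample. Every p-value from a fit that takes them as replicates measures the spread between hybridisations and not between cultures. The series was made to find genes that rise with VE-cadherin at the junctions of confluent cells.

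Cdh5 itself, on its only annotated probe set 104083_at, gave signals of 2607 and 2526 in confluent VEC-positive cells, 1464 and 1334 in sparse VEC-positive cells, 2707 and 2509 in confluent VEC-null cells, and 1255 and 1282 in sparse VEC-null cells. The array therefore does not separate the lines by this transcript, and the labels do not say whether the probes lie inside the mutated stretch, so the lines are named by their labels throughout. Of 15 endothelial markers 13 were measured, and their summed signal was 61593 to 63699 in confluent VEC-positive, 23038 to 25909 in sparse VEC-positive, 52954 to 53416 in confluent VEC-null and 13981 to 14048 in sparse VEC-null cells. They were thus higher with confluence in both lines, and their part in the results below was not tested. Defining markers of some other cells were near background: Ptprc and Itgam of blood cells stayed at or under 34.1, Epcam of epithelium at or under 26.9, and Nanog of stem cells at or under 70.2. Other markers were not. The 5 blood markers measured summed to 659 to 759 in confluent VEC-positive, 831 to 894 in sparse VEC-positive, 2656 to 3022 in confluent VEC-null and 779 to 941 in sparse VEC-null cells. Lcp1, an actin-bundling protein of white blood cells, accounted for much of this, with 1614 and 1552 in confluent VEC-null cells and between 66.0 and 387 elsewhere, as did Cd68, a macrophage marker, with 747 and 1074 there and between 252 and 364 elsewhere. The culture with the highest blood marker signal was thus the one in which most of the mitotic genes were lowest, and the part of these markers in that result was not tested. All 8 fibroblast and smooth muscle markers were measured and summed to 914 to 962 in confluent VEC-positive, 943 to 1079 in sparse VEC-positive, 1029 to 1142 in confluent VEC-null and 967 to 1050 in sparse VEC-null cells. Among them Pdgfrb gave 311 and 344 in confluent VEC-null cells and at most 16.5 elsewhere, and Dcn reached 602 in confluent VEC-positive cells and was lowest, at 88.2, in sparse VEC-null cells. Krt19, an epithelial keratin, gave 862 and 948 in sparse VEC-positive cells and at most 7.0 elsewhere, and the 5 epithelial markers summed to 502 to 546 in confluent VEC-positive, 1241 to 1391 in sparse VEC-positive, 465 to 617 in confluent VEC-null and 355 to 462 in sparse VEC-null cells. The 7 stem cell markers summed to between 348 and 506 on every array. The copies of a condition correlated at r = 0.951 to 0.989 over all probe sets of a chip, and the ratio of 3′ to 5′ Gapdh signal ran from 0.903 to 1.23.

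As background, cells that leave the cell cycle stop making most of these transcripts, which peak as a cycling cell passes from DNA replication into mitosis. Endothelial cells that touch their neighbours normally stop dividing, a behaviour called contact inhibition, and VE-cadherin is one of the proteins linked to it. Many mitotic promoters carry CCAAT boxes, bound by the factor NF-Y, and close to the start, the cell cycle genes homology region, called the homology element here, bound by complexes of the MuvB core with B-Myb (Mybl2), FoxM1 or, in resting cells, E2F4.

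Promoters were read from a RefSeq table (build GRCm38.p6), which held 37 of the 45 genes. In the 250 bases before the start, 31 of 37 (83.8%) held CCAAT on either strand, against 37.5% of the 27025 genes of the table. A pair or more of CCAAT boxes stood in 19 of 37 (51.4%), against 11.5% of all genes. The homology element, searched as the letters TTTGAA and also as the palindrome TTCGAA, on either strand, stood in 18 (48.6%), against 19.6%, and 17 (45.9%) held both kinds of motif, against 7.93%. No base was shared by both kinds of motif in the windows printed here. Neighbouring CCAAT boxes on the same strand formed 28 pairs in these promoters, and 8 of the pairs lay 30 to 36 bases apart. Spacing was read at the first listed start of each gene and was not counted over all genes, so it has no background share. Matches are a description of the letters and do not show that a factor binds.

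Shown here are 150 bases that end 1 base before the start, on the strand of the gene, from 6 genes that passed a test described further on and hold both motifs, with a homology element within 30 bases of the start, and from Ccnb2, which passed none. As the 6 were picked for their motifs, they do not show whether the element goes with passing. Among others, Bub1, Ttk, Aurka and Nek2 passed a test with no homology element in the 250 bases. Bub3, Kif22 and Ncapd2 passed none and hold the element. The windows lie at chr10:69352913-69353062 (minus strand) for Cdk1, chr9:70421555-70421704 (minus strand) for Ccnb2, chr4:118437344-118437493 (minus strand) for Cdc20, chr15:102296143-102296292 (plus strand) for Espl1, chr17:24251410-24251559 (minus strand) for Ccnf, chr19:37376232-37376381 (plus strand) for Kif11, and chr11:99024190-99024339 (minus strand) for Top2a. Capitals mark the CCAAT boxes, which read ATTGG where they lie on the other strand, and the homology elements, which read TTCAAA there.
Cdk1: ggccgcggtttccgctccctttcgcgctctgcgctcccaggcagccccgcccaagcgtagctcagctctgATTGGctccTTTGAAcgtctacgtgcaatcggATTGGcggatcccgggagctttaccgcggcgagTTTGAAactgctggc
Ccnb2: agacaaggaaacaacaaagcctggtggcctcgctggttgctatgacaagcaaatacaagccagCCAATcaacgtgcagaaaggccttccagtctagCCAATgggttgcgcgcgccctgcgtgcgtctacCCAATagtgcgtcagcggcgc
Cdc20: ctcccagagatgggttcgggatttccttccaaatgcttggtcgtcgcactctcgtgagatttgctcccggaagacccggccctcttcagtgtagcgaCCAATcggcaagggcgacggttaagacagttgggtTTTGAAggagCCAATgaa
Espl1: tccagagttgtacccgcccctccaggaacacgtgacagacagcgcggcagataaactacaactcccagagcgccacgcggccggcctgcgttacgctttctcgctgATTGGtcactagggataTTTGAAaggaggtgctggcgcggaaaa
Ccnf: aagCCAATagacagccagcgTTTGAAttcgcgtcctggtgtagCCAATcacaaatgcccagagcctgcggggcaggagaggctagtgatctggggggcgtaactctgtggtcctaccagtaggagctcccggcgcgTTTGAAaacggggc
Kif11: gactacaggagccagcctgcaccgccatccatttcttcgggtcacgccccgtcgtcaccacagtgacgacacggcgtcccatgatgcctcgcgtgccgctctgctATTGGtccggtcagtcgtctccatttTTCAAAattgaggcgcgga
Top2a: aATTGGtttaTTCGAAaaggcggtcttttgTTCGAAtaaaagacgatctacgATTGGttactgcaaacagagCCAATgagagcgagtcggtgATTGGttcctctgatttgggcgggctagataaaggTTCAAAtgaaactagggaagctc
Ccnb2 holds 3 CCAAT boxes, which begin 87, 54 and 21 bases before the start, and no homology element in the window, though 1 stands within its 250 bases. Cdk1 holds 2 of each motif, with the nearer homology element beginning 15 bases before the start. Top2a holds 4 CCAAT boxes and 3 homology elements.

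Expression levels were compared as MAS5 signal, the manufacturer's summary of a probe set on an array scaled to a mean of 500. Changes are differences of log2(signal + 50), and the added 50 makes a change of a dim gene look smaller. A gene passed the test when limma's moderated test gave an adjusted p below 0.05, with Benjamini-Hochberg adjustment over all 14301 tested probe sets, and the change was at least 1, a doubling. "Rose" and "fell" are used for those genes only.

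The median signal of the 35 genes measured on the first chip type was 1409 and 1463 on the arrays of confluent VEC-positive cells, 1071 and 1192 for sparse VEC-positive, 904 and 861 for confluent VEC-null, and 1657 and 1520 for sparse VEC-null cells. The 7 genes on the second chip type followed the same order, with medians of 2115 and 1743, 1573 and 1388, 1164 and 1265, and 2351 and 2294 for the conditions in that sequence. Mitotic transcripts were thus most abundant in sparse VEC-null cells and least abundant in confluent VEC-null cells, with both VEC-positive cultures between them. The median over all tested probe sets stayed between 511 and 570 on every array. By mean level, 34 of the 42 genes were lowest in confluent VEC-null cells (20.8% of all tested probe sets were) and 30 were highest in sparse VEC-null cells (29%). Both held for 26 genes, against 7.82% of all tested probe sets.

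**Figure D1:**
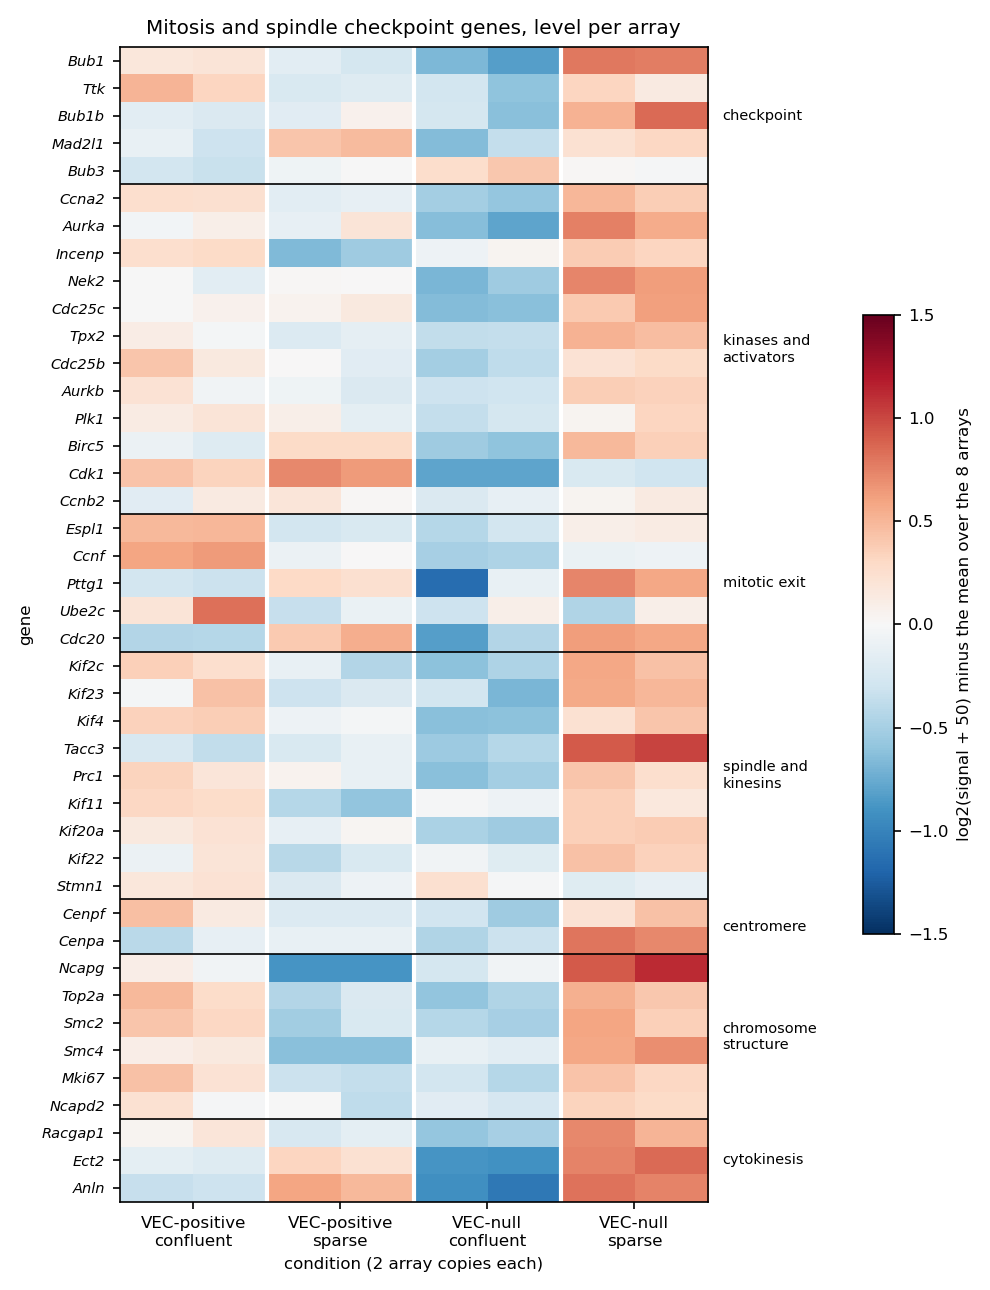
Level of the 42 tested genes on each of the 8 arrays of their chip type, as log2(signal + 50) minus the gene's mean over the arrays, red above and blue below. Columns are the 4 conditions with 2 array copies each, rows are grouped by role, and most rows are bluest in confluent VEC-null cells and reddest in sparse VEC-null cells.

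In VEC-null cells, 15 of the 42 genes fell with confluence and none rose (limma). Over all tested probe sets 7.4% fell and 9.08% rose. By adjusted p alone, 38 genes were lower and 2 higher, against 23.5% and 23.1% of all tested probe sets. At an unadjusted p below 0.05, 39 genes were lower and 2 higher. The median change of the 42 genes was -0.89, beside a median of -0.0023 for all tested probe sets. The 15 genes were Bub1, Bub1b, Aurka, Nek2, Cdc25c, Cdc20, Pttg1, Kif2c, Kif23, Tacc3, Cenpa, Ncapg, Ect2, Racgap1 and Anln, with changes from -1.01 to -1.78 and adjusted p from 2.79e-07 to 0.00227. They include every gene of the cytokinesis group. On both arrays of confluent VEC-null cells 39 of the 42 genes lay below both arrays of sparse VEC-null cells, against 37.3% of all tested probe sets. In RNA from whole cultures, a smaller share of cells in or near mitosis and less of these transcripts in each cell cannot be told apart.

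In VEC-positive cells, 0 of the 42 genes rose with confluence and 0 fell (limma), while over all tested probe sets 8.13% rose and 7.21% fell. By adjusted p alone, 22 genes were higher and 7 lower in confluent cells, against 24.5% and 23% of all tested probe sets, shares in which the mitotic genes lie above the background for higher levels and below it for lower ones. At an unadjusted p below 0.05 the numbers were 24 and 8. Changes ran from -0.90 for Cdc20 to 0.91 for Ncapg, with a median of 0.30 beside 0.015 for all tested probe sets. On both arrays 26 genes lay above sparse cells and 11 below, and 37.9% and 36.5% of all tested probe sets did so. Centring each array on its median moved all probe sets of the first chip type by -0.193 in this comparison and by -0.145 in VEC-null cells. Those of the second chip type, which carries Ncapg, moved by 0.103 in this comparison and by -0.0246 in VEC-null cells. Under this centring the median of the 42 genes was 0.17 in VEC-positive and -1.03 in VEC-null cells. Ncapg then rose in VEC-positive cells, with the upward shift of its chip, and Anln and Cdc20 fell, with the downward shift of theirs.

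The density responses of the lines differed for 26 of the 42 genes. For each of these the interaction, the density change in VEC-positive minus that in VEC-null cells, was above 0, with values from 1.05 for Ccnf to 2.09 for Ncapg and adjusted p from 3.07e-05 to 0.0018. None passed in the other direction (limma), where 1 gene, Bub3, was below 0 by adjusted p alone and at an unadjusted p below 0.05, and by adjusted p alone so were 14% of all tested probe sets. Of all tested probe sets 5.89% passed above 0 and 6.31% below 0. The median interaction was 1.10 over the 42 genes and 0.0066 over all tested probe sets. A density change above 0 in VEC-positive and below 0 in VEC-null cells was found for 25 genes, against 16.6% of all tested probe sets. For 20 of them both changes had an adjusted p below 0.05, against 2.08%. Across the 42 genes the density changes of the lines correlated at r = 0.38 (rho = 0.38), and across all 14301 tested probe sets at r = 0.61 (rho = 0.52). The genes share arrays and are not independent points.

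**Figure D2:**
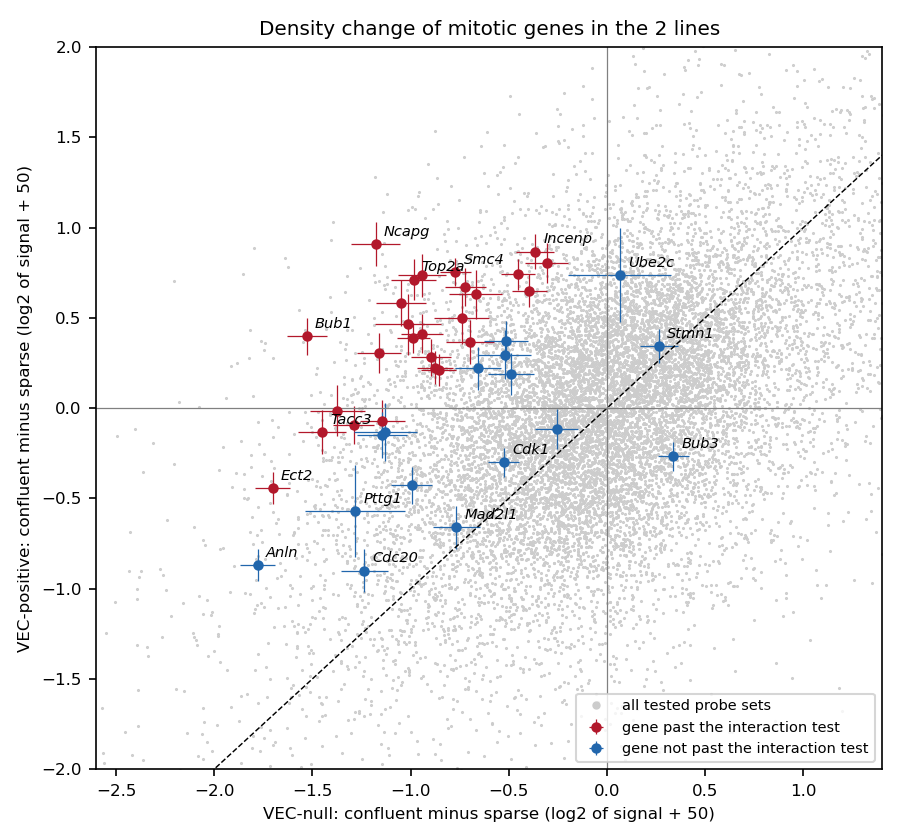
Change with confluence of each of the 42 genes in VEC-null cells (horizontal) and in VEC-positive cells (vertical), both as confluent minus sparse log2(signal + 50), with standard errors as bars and all tested probe sets in grey. The dashed line marks equal changes, and the 26 genes in red, past the interaction test, lie above it, while Cdc20 and Mad2l1 lie close to it.

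Among the 5 spindle checkpoint genes, Bub1 and Bub1b fell with confluence in VEC-null cells, and Bub1 and Ttk passed the interaction test. Bub1, a kinase of the checkpoint at kinetochores, gave signals of 989 and 1006 in confluent VEC-positive, 776 and 716 in sparse VEC-positive, 527 and 473 in confluent VEC-null and 1551 and 1520 in sparse VEC-null cells. No arrays of different conditions overlapped for it, and confluence went with more Bub1 in one line and less in the other. Its density change was 0.40 (SE 0.10, adjusted p = 0.00959) in VEC-positive and -1.53 (SE 0.10, adjusted p = 1.67e-06) in VEC-null cells, an interaction of 1.93 (SE 0.14, adjusted p = 3.33e-05), or 3.8-fold. Ttk (Mps1), the kinase that recruits the other checkpoint proteins, had an interaction of 1.30. Bub1b, the checkpoint kinase-like protein BubR1, had a VEC-null change of -1.13 and an interaction of 0.9953, just under the size required.

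Bub3, the WD-repeat partner of Bub1 and the brightest checkpoint gene, went the other way. Its signals were 2993 and 2867 in confluent VEC-positive, 3464 and 3610 in sparse VEC-positive, 4374 and 4803 in confluent VEC-null and 3672 and 3567 in sparse VEC-null cells. The highest level was thus in the culture where most of the other genes were lowest, with an interaction of -0.60 (adjusted p = 0.00358), short of the size required. Another Bub3 probe set, 107128_at, had an interaction of -0.20 and a difference of 0.25 between confluent VEC-positive and VEC-null cells, where the representative had -0.64. Mad2l1, which holds back Cdc20 until chromosomes are attached, was lower with confluence in both lines by adjusted p alone, by -0.66 in VEC-positive and -0.77 in VEC-null cells.

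Of the 12 tested kinases and activators, Aurka, Nek2 and Cdc25c fell with confluence in VEC-null cells, and these with Ccna2, Cdc25b, Incenp and Tpx2 passed the interaction test. Aurka, the kinase of centrosomes and spindle poles, gave 683 and 748 in confluent VEC-positive, 640 and 814 in sparse VEC-positive, 435 and 384 in confluent VEC-null and 1226 and 1056 in sparse VEC-null cells. The VEC-positive cultures overlapped, while the VEC-null cultures differed by -1.37 (SE 0.14, adjusted p = 2.98e-05). Nek2, which separates the centrosomes, gave 930 and 835, and 950 and 938, in confluent and sparse VEC-positive cells, and 563 and 630, and 1585 and 1473, in confluent and sparse VEC-null cells. Its VEC-null change was -1.29 (adjusted p = 7.23e-06). Ccna2, the cyclin of DNA replication and early mitosis, had changes of 0.39 and -0.99 in the VEC-positive and VEC-null lines and an interaction of 1.37 (adjusted p = 6.57e-05). Cdc25b and Cdc25c, phosphatases that activate Cdk1, had interactions of 1.06 and 1.07. Incenp, the scaffold of the chromosomal passenger complex, and Tpx2, the activator of Aurka on spindle microtubules, had 1.23 and 1.07. Aurkb, Birc5 and Plk1, with interactions of 0.88, 0.57 and 0.68, did not reach the size required. Other Plk1 probe sets had interactions of 1.12 (93099_f_at, adjusted p = 0.00125), past the test, and -0.11 (161292_f_at).

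Cdk1 and Ccnb2, which form the kinase that drives entry into mitosis, behaved unlike most of the group. Cdk1 gave 3928 and 3663 in confluent VEC-positive, 4812 and 4556 in sparse VEC-positive, 1659 and 1657 in confluent VEC-null and 2463 and 2356 in sparse VEC-null cells. It was higher in the VEC-positive line at both densities, and lower with confluence in both lines by adjusted p alone, with changes of -0.30 in VEC-positive and -0.53 in VEC-null cells and an interaction of 0.23 (adjusted p = 0.166). Ccnb2 gave 2850 and 3528, 3640 and 3260, 2744 and 2954, and 3311 and 3515 in confluent and sparse VEC-positive and then confluent and sparse VEC-null cells. The ranges of its conditions overlapped in part, and its changes lay between -0.26 and 0.15 in all 5 comparisons.

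Cdc20 and Pttg1 of the 5 genes of chromatid separation and exit fell with confluence in VEC-null cells, and Espl1 and Ccnf passed the interaction test. Cdc20, the activator of the anaphase-promoting complex, gave 2707 and 2750 in confluent VEC-positive, 4877 and 5419 in sparse VEC-positive, 2064 and 2715 in confluent VEC-null and 5728 and 5561 in sparse VEC-null cells. It was lower with confluence in both lines, by -0.90 (adjusted p = 0.000182) in VEC-positive and -1.24 (adjusted p = 2.03e-05) in VEC-null cells, and the interaction of 0.33 did not pass (adjusted p = 0.167). Espl1, separase, the protease that cuts cohesin, gave 4046 and 4082 in confluent VEC-positive, 2370 and 2455 in sparse VEC-positive, 2128 and 2375 in confluent VEC-null and 3048 and 3141 in sparse VEC-null cells. It was highest in confluent VEC-positive cells, with an interaction of 1.19 (SE 0.12, adjusted p = 0.000144). Pttg1, securin, which inhibits separase, had changes of -0.57 in VEC-positive and -1.28 in VEC-null cells, and its copies in confluent VEC-null cells stood apart at 363 and 789. Ube2c, the ubiquitin-conjugating enzyme of the complex, was near the level filter, with signals from 101 to 316. It passed the filter only through confluent VEC-positive cells, where it was highest. Its place among the 22 genes higher with confluence in that line, by adjusted p alone, is therefore no support for that count. The interactions of Pttg1 and Ube2c, 0.71 and 0.67, did not pass (adjusted p = 0.171 and 0.209).

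Of the 9 tested kinesins and spindle proteins, Kif2c, Kif23 and Tacc3 fell with confluence in VEC-null cells, and 7 passed the interaction test. Kif2c, a kinesin that takes microtubules apart at centromeres, gave 1409 and 1309 in confluent VEC-positive, 1002 and 790 in sparse VEC-positive, 696 and 778 in confluent VEC-null and 1657 and 1502 in sparse VEC-null cells. It was higher with confluence in VEC-positive cells by 0.58 (adjusted p = 0.00393), short of the size required, and fell in VEC-null cells, with a change of -1.05 and an interaction of 1.63 (SE 0.18, adjusted p = 0.000214). Kif11, the motor that pushes spindle poles apart, Kif20a and Kif23, motors of the central spindle, and Kif4, a motor on chromosome arms, had interactions of 1.11, 1.10, 1.48 and 1.36. Kif22, another motor on chromosomes, had 0.89, short of the size required. Prc1, which bundles the microtubules of the central spindle, gave 3240 and 2895, 2663 and 2370, 1644 and 1788, and 3433 and 3043 in confluent and sparse VEC-positive and confluent and sparse VEC-null cells, an interaction of 1.18. A second Prc1 probe set, 113026_at, had an interaction of -0.02.

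Tacc3, which binds spindle microtubules with clathrin, differed between its probe sets. The representative, 97238_at, gave 350 and 317 in confluent VEC-positive, 352 and 389 in sparse VEC-positive, 274 and 302 in confluent VEC-null and 842 and 903 in sparse VEC-null cells, so that sparse VEC-null cells stood alone. The brighter set 109795_at changed by no more than 0.13 in any comparison, with a density change of -0.03 in VEC-null cells and an interaction of -0.025. Stmn1, which binds free tubulin and is not restricted to mitosis, was the brightest gene. It gave 5396 and 5577, 4112 and 4527, 5649 and 4728, and 4214 and 4378 in confluent and sparse VEC-positive and confluent and sparse VEC-null cells, higher with confluence by 0.34 and 0.26 in the VEC-positive and VEC-null lines, with an interaction of 0.08 (adjusted p = 0.70).

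**Figure D3:**
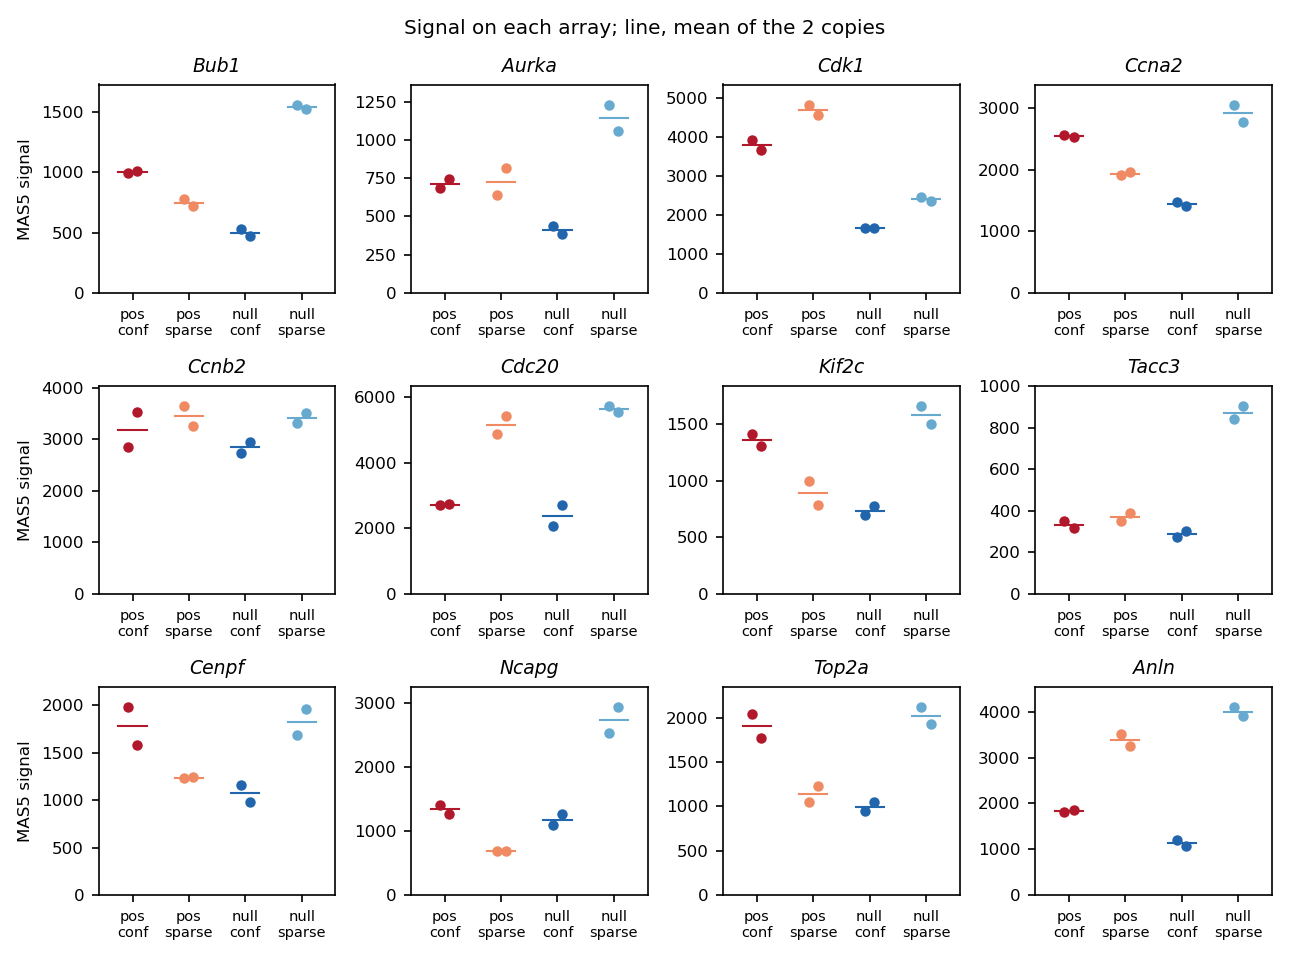
MAS5 signal of 12 genes on each array, with the mean of the 2 copies as a line, for confluent (conf) and sparse VEC-positive (pos) and confluent and sparse VEC-null (null) cells. Bub1, Ncapg and Top2a cross between the lines, Cdc20 and Anln are lower with confluence in both, Cdk1 is higher in both VEC-positive cultures, and Ccnb2 changes little.

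Cenpa, the histone variant of centromeres, fell with confluence in VEC-null cells, with signals of 386 and 424 in confluent and 985 and 927 in sparse cells, and its interaction of 0.9957 was just under the size required. Cenpf, a large protein of the outer kinetochore, gave 1978 and 1578 in confluent VEC-positive, 1237 and 1239 in sparse VEC-positive, 1164 and 980 in confluent VEC-null and 1683 and 1963 in sparse VEC-null cells, an interaction of 1.24 (SE 0.20, adjusted p = 0.00161). The levels of the lines crossed. For Cenpe, the other probe set, 112018_at, had a mean signal of 2017 and an interaction of 0.97, with changes of -0.79 with confluence in VEC-null cells and 0.81 between confluent VEC-positive and VEC-null cells.

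For the 6 genes of chromosome structure the median interaction was 1.60, and 5 of them passed the test. Their median density change was 0.72 in VEC-positive and -0.86 in VEC-null cells. Ncapg, a subunit of condensin, the ring complex that compacts chromosomes, gave 1411 and 1269 in confluent VEC-positive, 688 and 692 in sparse VEC-positive, 1090 and 1265 in confluent VEC-null and 2529 and 2928 in sparse VEC-null cells. The arrays of the lines did not overlap at either density. The confluent cultures differed by only 0.18 (limma, adjusted p = 0.291) and the sparse ones by -1.90. The interaction was 2.09 (SE 0.17, adjusted p = 5.53e-05), or 4.25-fold. Smc2 gave 2361 and 2202, 1216 and 1500, 1295 and 1234, and 2694 and 2274 in confluent and sparse VEC-positive and confluent and sparse VEC-null cells. Smc4, its partner in the core of condensin, gave 3164 and 3270, 1893 and 1880, 2713 and 2628, and 4407 and 4802 in the same sequence. Both crossed between the lines, with interactions of 1.68 and 1.53.

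Top2a, the topoisomerase that untangles sister chromatids, gave 2043 and 1770 in confluent VEC-positive, 1055 and 1235 in sparse VEC-positive, 946 and 1050 in confluent VEC-null and 2119 and 1930 in sparse VEC-null cells. Confluent VEC-positive and sparse VEC-null cells overlapped at the high level, sparse VEC-positive and confluent VEC-null cells were at the low one, and the interaction was 1.70 (SE 0.16, adjusted p = 0.00011). Mki67, the proliferation marker that coats mitotic chromosomes, had density changes of 0.67 in VEC-positive and -0.72 in VEC-null cells and an interaction of 1.39. Ncapd2, another condensin subunit, had an interaction of 0.82, short of the size required.

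The 3 cytokinesis genes all fell with confluence in VEC-null cells. Anln, anillin, a scaffold of the contractile ring, gave 1803 and 1856 in confluent VEC-positive, 3518 and 3260 in sparse VEC-positive, 1193 and 1073 in confluent VEC-null and 4098 and 3915 in sparse VEC-null cells. It was lower with confluence in both lines without overlap, by -0.87 (SE 0.09, adjusted p = 3.25e-05) in VEC-positive and -1.78 (SE 0.09, adjusted p = 2.79e-07) in VEC-null cells, a 3.43-fold fall in the VEC-null line, and its interaction of 0.91 was short of the size required. Ect2, the exchange factor that switches on RhoA at the division plane, gave 1518 and 1463 in confluent VEC-positive, 2118 and 1976 in sparse VEC-positive, 887 and 872 in confluent VEC-null and 2867 and 3087 in sparse VEC-null cells. It was lower by -0.44 (adjusted p = 0.00232) in VEC-positive and by -1.70 (adjusted p = 3.51e-07) in VEC-null cells, with an interaction of 1.26. Racgap1, the partner that brings Ect2 to the central spindle, had an interaction of 1.46 and a VEC-null change of -1.16.

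By adjusted p alone, 6 genes were lower with confluence in both lines: Mad2l1, Cdc20, Cdk1, Birc5, Ect2 and Anln. Of these Ect2 was the only one to pass the interaction test. When the copies were averaged and density was fitted as a term shared by the lines over the 4 cRNA samples, Anln was the only gene past the test, at -1.32 (SE 0.35, adjusted p = 0.0422), and 4.13% of all tested probe sets were lower and 5.78% higher. That fit leaves 1 degree of freedom between samples, which is the interaction. The standard error of its density term was 0.31 for Stmn1, with an interaction of 0.08, and 0.43 for Bub1, with 1.93. The median shared density change of the 42 genes was -0.25. Anln was also the only gene lower by adjusted p alone, against 4.73% of all tested probe sets. At an unadjusted p below 0.05, 8 genes were lower.

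Between the lines at confluence, 2 genes were higher in VEC-positive cells, Cdk1 by 1.17 (SE 0.08, adjusted p = 8.06e-06), or 2.25-fold, and Ccnf by 1.09 (SE 0.09, adjusted p = 2.4e-05), or 2.13-fold. Over all tested probe sets 4.29% were higher and 3.62% lower. Ccnf, an F-box protein that marks others for destruction late in the cycle, gave 1815 and 1875 in confluent VEC-positive, 1121 and 1192 in sparse VEC-positive, 825 and 852 in confluent VEC-null and 1110 and 1127 in sparse VEC-null cells. Confluent VEC-positive cells stood alone, and the sparse cultures differed by 0.05. None of the 42 genes was lower past the test (limma), and Bub3 alone was lower at an unadjusted p below 0.05, while 32 were higher at that level. By adjusted p alone, 29 were higher and 1 lower, against 16.2% and 16.8% of all tested probe sets. The median difference was 0.64, beside -0.027 for all tested probe sets, and on both arrays 35 of the 42 genes lay above confluent VEC-null cells, against 32.4% of all tested probe sets. Cdk1 lies on chromosome 10, where the median of 631 tested probe sets was 0.44 at confluence and 0.37 in sparse cells. Less that median its difference at confluence was 0.73, short of the size required.

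Between the sparse cultures, 3 genes were lower in VEC-positive cells: Ncapg by -1.90 (SE 0.12, adjusted p = 4.42e-06), Smc4 by -1.26 (SE 0.08, adjusted p = 3.55e-06) and Tacc3, on its representative probe set, by -1.14 (SE 0.12, adjusted p = 9.67e-05). Over all tested probe sets 4.27% were lower and 5.43% higher. Ncapg and Tacc3 lie on chromosome 5, where the median of 823 tested probe sets was -0.36, and less that median the difference of Tacc3 was -0.78. Bub1, at -0.9954, was just under the size required. None of the 42 genes was higher past the test (limma), and Cdk1 alone was higher at an unadjusted p below 0.05, while 31 were lower. By adjusted p alone, 1 was higher and 29 lower, against 18.2% and 20.5% of all tested probe sets. The median difference was -0.51, beside -0.028 for all tested probe sets. On both arrays of sparse VEC-positive cells 34 of the 42 genes lay below both of sparse VEC-null cells, against 37% of all tested probe sets, and 2 lay above, against 33.2%. Most of the genes were thus higher in VEC-positive cells at confluence and lower in them at low density. A VEC term shared by the densities over the 4 cRNA samples passed for 0 of the 42 genes (limma). Of all tested probe sets 1.41% passed above and 0.825% below 0. The residual of that fit is the interaction, and the median shared VEC difference of the 42 genes was 0.04. Differences of opposite sign at the densities offset each other in this term. The 0 therefore says little about either density alone. At the looser level of an unadjusted p below 0.05, to which these shares do not apply, 1 gene was higher and 1 lower.

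**Figure D4:**
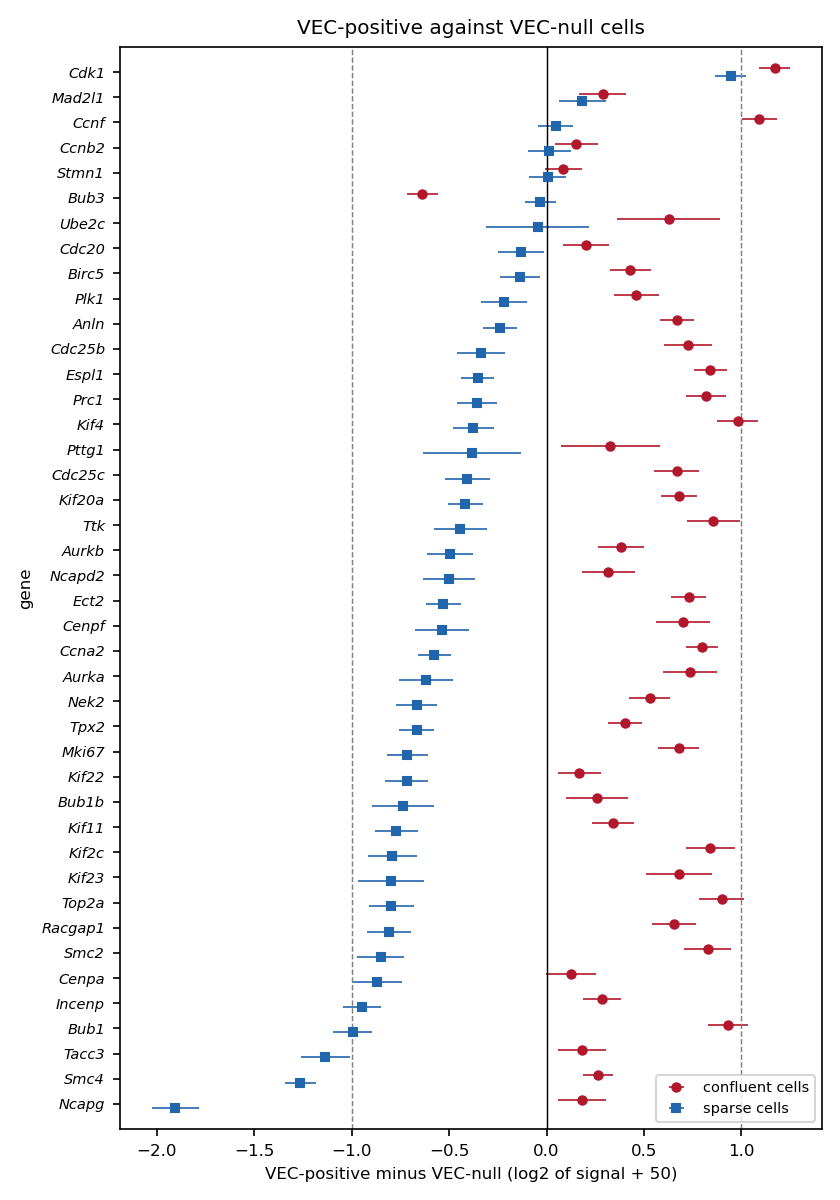
Difference between VEC-positive and VEC-null cells for each of the 42 genes, as log2(signal + 50) with standard errors, in confluent cells (circles) and sparse cells (squares), with dashed lines at the size of 1 that the test requires. Most circles lie right of 0 and most squares left of it, while Cdk1 lies right of 0 at both densities.

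Other genes of the cell cycle, listed by function, showed the pattern in part. Of 49 further mitotic genes 15 fell with confluence in VEC-null cells and 19 passed the interaction test above 0, where 7.4% and 5.89% of all tested probe sets did, with a median interaction of 0.90. Cep55, which acts in the last cut between daughter cells, fell by 1.86 and Lmnb1, a lamin of the nuclear envelope, fell by 1.85 on the log2 scale in confluent VEC-null cells. Ncaph, the condensin subunit beside Ncapg, rose with confluence in VEC-positive cells by 1.52. Cks1b, a small partner of cyclin-dependent kinases, fell in both lines, by 1.09 in VEC-positive and 1.05 in VEC-null cells on the log2 scale. Of 39 S phase genes 21 passed the interaction test above 0, against 5.89% of all tested probe sets, and 13 were lower in sparse VEC-positive than in sparse VEC-null cells, against 4.27%. Only 3 of the 39 fell with confluence in VEC-null cells, a share near the 7.4% of all tested probe sets. By adjusted p alone, however, 27 were lower and 2 higher (limma), against 23.5% and 23.1% of all tested probe sets. Their median change there was -0.51, beside -0.0023 for all tested probe sets, so many were lower by less than the size required. Among 23 subunits of the anaphase-promoting complex and cohesin, 2 passed above 0 and 1 below, with a median interaction of 0.32. These shares, 8.7% and 4.3%, are near the 5.89% and 6.31% of all tested probe sets.

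Of 19 tested regulators of mitotic transcription, 9 passed the interaction test above 0, against 5.89% of all tested probe sets. Mybl2 (B-Myb) gave signals of 313 and 341 in confluent VEC-positive, 219 and 310 in sparse VEC-positive, 248 and 223 in confluent VEC-null and 1045 and 883 in sparse VEC-null cells. Sparse VEC-null cells stood alone, and the VEC-null change was -1.82 (SE 0.16, adjusted p = 1.28e-05). Lin54, the MuvB subunit that binds the homology element, gave 1034 and 1041, 638 and 603, 871 and 1100, and 2237 and 2335 in confluent and sparse VEC-positive and confluent and sparse VEC-null cells, with a VEC-null change of -1.18 (adjusted p = 4.97e-05). E2f4 also fell in VEC-null cells, with a change of -1.05 (limma, adjusted p = 2.73e-06), and its interaction of 0.70 was short of the size required. Foxm1 had a VEC-null change of -0.41 (adjusted p = 0.0876) and an interaction of 0.90, short of the size required.

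**Figure D5:**
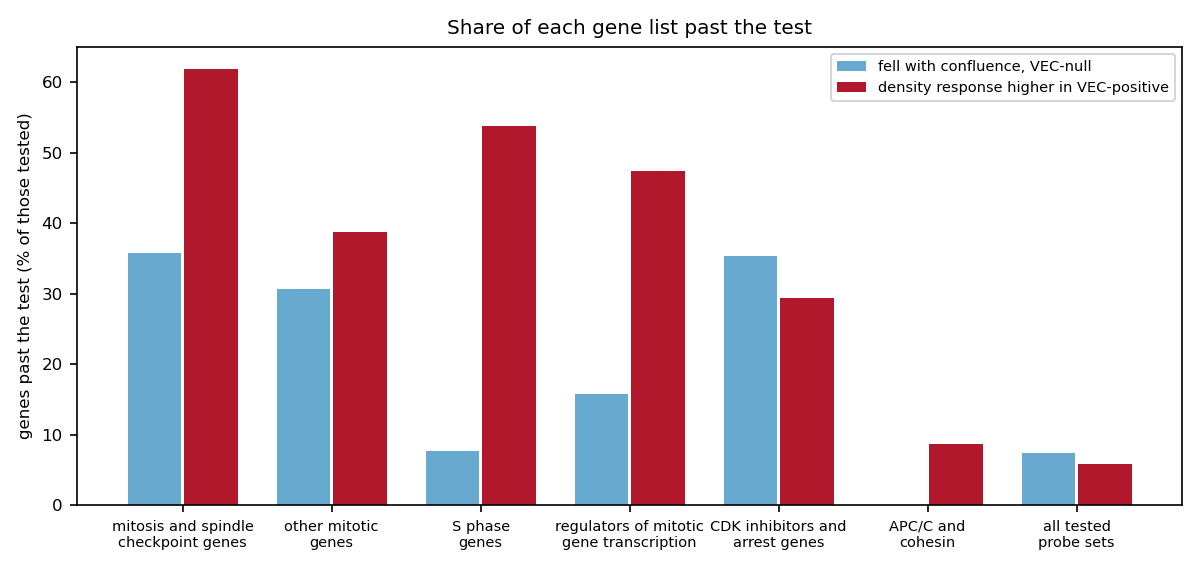
Share of the tested genes of each list that fell with confluence in VEC-null cells (light blue) and that had a higher density response in VEC-positive than in VEC-null cells (red), in percent, with all tested probe sets at the right. The mitosis and spindle checkpoint genes stand at 35.7% and 61.9%, against 7.4% and 5.89% of all tested probe sets, and the bar of the anaphase-promoting complex and cohesin for the fall is at 0.

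Probe sets other than the representative were dimmer or disagreed for some genes. Of 22 such sets 12 passed the level filter, and 11 of these belong to a gene with a tested representative. In 8 of the 11 the interaction had the sign of the representative, and in 10 of the 11 the VEC-null density change did. Signs also count sets that hardly changed, with VEC-null changes of -0.07 for Incenp 113149_at and Prc1 113026_at and -0.03 for Tacc3 109795_at. Of the 11, only Plk1 93099_f_at and Cdc25c 102935_at passed the interaction test. Incenp had interactions of 1.23 on its representative and 0.01, 0.71 and 0.73 on its other sets, and a second Cdc25c set had 1.57 where the representative had 1.07. Between the confluent lines that Cdc25c set passed at 1.01, where the representative had 0.67. A second Tpx2 set, 113504_at, passed there at 1.07, where the representative had 0.40. Between the sparse lines this Tpx2 set had 0.34 and the representative -0.67.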

How the data were processed

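Genome-wide transcript levels of 4 conditions were measured on Affymetrix MG_U74Av2 (first) and MG_U74Bv2 (second) arrays from 15 µg of total RNA. The deposited signal values are MAS5 intensities scaled by the authors to a target of 500, per the labels, and each condition gave 1 cRNA sample, run on 2 copies of each chip. The submitters' processing notes name MAS5 and no version. Probe sets were named from the platform annotation: of 24833 that are not controls, 21414 had 1 symbol, 574 several and 2845 none, and 21411 matched a RefSeq gene.

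From these signals log2(signal + 50) was computed. Probe sets were tested where the mean of at least 1 condition exceeded the chip's median, which left 6997 and 7304 on the first and second chips. limma 3.58.1 (R 4.3.3; lmFit, eBayes with trend) was fitted to the 8 arrays of each chip, with contrasts between conditions and their interaction, and to the 4 cRNA samples with additive terms. The fit to the arrays was tested on simulated data with known changes, and the other steps were not. In the fit to the arrays the p-values measure the spread between copies, and array copies, not independent cultures, stand as replicates. Only 8 arrays per chip limit the precision. In the fit to the 4 cRNA samples the copies are averaged, and the p-values rest on the residual, which is the interaction, moderated over the probe sets.

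The members and lists were chosen with earlier results of these data known. Values on every array are given for the genes with the largest changes past the test, at most 6 in a comparison, and for 1 or 2 of the brightest of each role. Of the other lists, genes past the test are named, at most 5 in a comparison, and Foxm1, chosen after its values were seen. Alternatives were other offsets, filters, scalings, probe sets, a replicate block, each array left out, no minimum change and a correction by chromosome.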

Additional observations from a re-analysis of the deposited data

Results flagged for a closer look

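The density response differed between the lines, by the interaction term of the fit, for 26 of the 42 genes, and each value here is the log2 change with confluence in VEC-positive minus that in VEC-null cells. Among checkpoint genes it was 1.93 for Bub1 and 1.30 for Ttk. Among kinases and their activators it was 1.36 for Aurka, 1.20 for Nek2, 1.37 for Ccna2, 1.06 for Cdc25b, 1.07 for Cdc25c, 1.23 for Incenp and 1.07 for Tpx2. For genes of mitotic exit it was 1.19 for Espl1 and 1.05 for Ccnf. Kinesins and spindle proteins had 1.11 for Kif11, 1.10 for Kif20a, 1.63 for Kif2c, 1.36 for Kif4, 1.48 for Kif23, 1.18 for Prc1 and 1.32 for Tacc3. Cenpf of the centromere had 1.24. Genes of chromosome structure had 1.70 for Top2a, 1.39 for Mki67, 1.68 for Smc2, 1.53 for Smc4 and 2.09 for Ncapg, and the cytokinesis genes Racgap1 and Ect2 had 1.46 and 1.26.

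In the other lists the same term passed above 0 for 19 of 49 further mitotic genes, 21 of 39 S phase genes and 9 of 19 regulators of mitotic transcription. It also did for 5 of 17 CDK inhibitors and arrest genes, and 2 of 23 subunits of the anaphase-promoting complex and cohesin. Of all tested probe sets 5.89% passed above 0 and 6.31% below. The term passed below 0 for 1 gene of each of the last pair of lists.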

How the results depend on the processing

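With no minimum change, the genes past the test numbered 29 in VEC-positive and 40 in VEC-null cells with density, and 30 between the lines at either density. Centring each array on its median gave 3 in place of 0 with density in VEC-positive cells, 22 in place of 15 in VEC-null cells, and 2 in place of 1 for density over the cRNA samples. An offset of 200 gave 11 in place of 15 with density in VEC-null cells, 22 in place of 26 for the interaction, 1 in place of 2 between the confluent lines and 0 in place of 1 for density over the cRNA samples, where no filter gave 0 and the 75th percentile filter 3. Less the chromosome's median, 1 gene in place of 2 passed between the confluent lines. Taking the brightest probe set on either chip turned Tacc3 to 0.13 between the sparse lines and -0.025 for the interaction.

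With each array left out in turn, where the lone copy is assumed to vary like the other conditions, the counts were 0 to 1 and 14 to 19 with density in VEC-positive and VEC-null cells, 2 to 4 and 3 to 4 between the lines in confluent and sparse cells, and 25 to 28 for the interaction. The count of 1 was Ube2c, near the level filter, and came without the first confluent VEC-positive copy on the first chip. That of 4 between the confluent lines came without the first confluent VEC-null copy on that chip. Copies with the same number did not deviate together across conditions (correlations of -0.0885 to 0.078), so they share only a number. With it as a block the counts were 0, 15, 2, 3 and 26, the same genes as without it.

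Single results past a test were counted as 1 gene in 1 comparison, so a gene past several tests counts once for each. Of these results, 11 lost the call with an offset of 200, 6 with an array left out and 3 under quantile normalization. Another 2 lost it less the chromosome's median, and 1 each with no filter, with centring and, besides the reversals, with the brightest probe set. For each of these the cause was not tested.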

Other observations

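Among 17 tested inhibitors of cyclin-dependent kinases and arrest genes, 9 had higher levels in the VEC-positive line at confluence and 6 at low density, with 0 and 1 lower (limma). Of all tested probe sets 4.29% were higher at confluence and 5.43% at low density, and 3.62% and 4.27% were lower. Cdkn1a, which encodes the inhibitor p21, gave signals of 4779 and 4826 in confluent VEC-positive, 3335 and 3382 in sparse VEC-positive, 418 and 485 in confluent VEC-null and 608 and 613 in sparse VEC-null cells. It was thus highest in the VEC-positive line at both densities, by 3.28 in confluent and 2.37 in sparse cells (limma, adjusted p = 9.57e-08 and 3.71e-07). Mdm2, the ubiquitin ligase of p53, was higher by 2.80 and 2.20, and Ccng1, a p53 target, by 2.62 and 1.86. Their order over the 4 conditions is unlike that of the mitotic genes, whose highest levels were in sparse VEC-null cells.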
